A study of Mus musculus with 20 samples.

Results

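Chemokines are small secreted proteins that direct the movement of cells carrying matching receptors, and activated T cells make several of them. The transcripts of 8 such genes were followed here: Ccl5, Ccl3, Ccl4, Xcl1, Ccl1, Ccl22, Cxcl9 and Cxcl10. They were taken from the count table by listed symbol, through the Ensembl gene identifiers of mouse build GRCm38, and make up 8 of the 49315 gene identifiers counted. All 8 were among the 28082 genes tested, although Ccl22, with at most 28 counts in any 0 h library, was listed mainly through its 6 h values.

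The study deleted Pcbp2, which encodes a poly(C)-binding protein that acts on messenger RNA, in mouse T cells. Splenic CD4+CD25- cells, called T effector cells in the labels, were sequenced in bulk from stranded mRNA libraries. CKO mice carried floxed Pcbp2 alleles with a CD4cre transgene. CTL mice were littermates with the same floxed alleles and without the Cre. Cells were taken either unstimulated (0 h) or after 6 h with beads carrying antibodies to CD3 and CD28. These engage the T cell receptor and the costimulatory receptor CD28. The groups were CKO at 6 h (3 libraries), CTL at 6 h (5 libraries), CKO at 0 h (6 libraries) and CTL at 0 h (6 libraries). Expression of Cre from the Cd4 promoter starts in the developing thymocyte, so deletion precedes the sort. No culture of 6 h without beads was analysed here, so stimulation and culture cannot be told apart. Ages were not given in the sources used here, and the labels do not say which libraries came from which animal. The p-values below therefore measure the spread between these libraries. Some libraries share a number in their titles, and the main fit did not pair them by it.

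As background, Ccl3, Ccl4 and Ccl5 attract effector T cells, macrophages and other myeloid cells to inflamed tissue. Xcl1 attracts XCR1-bearing dendritic cells, Cxcl9 and Cxcl10 attract CXCR3-bearing T cells, Ccl22 attracts CCR4-bearing T cells, and Ccl1 attracts CCR8-bearing cells. Signals from the T cell receptor through NF-kB, NFAT and AP-1 induce several of these genes in T cells, and interferon-gamma induces Cxcl9 and Cxcl10 in many cell types.

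Pcbp2 itself averaged 8.72 ± 2.24 CPM in CKO libraries at 6 h (SD, n = 3) and 322 ± 34.5 CPM in CTL libraries at 6 h (SD, n = 5). At 0 h it averaged 17.0 ± 3.39 CPM in CKO libraries and 333 ± 46.9 CPM in CTL libraries (SD, n = 6 each). CPM is the count of a gene for each 1000000 counts of its library, after scaling of the library totals. Totals were 65314747 to 76775918 counts in CKO libraries at 6 h and 26427467 to 69372546 counts in CTL libraries at 6 h. At 0 h they were 68795932 to 85608113 counts in CKO libraries and 70991619 to 79298656 counts in CTL libraries. CTL library 4.24 at 6 h was the shallowest, and libraries are named here by the numbers in their titles. CKO libraries 4.24 and 5.6 at 0 h were labelled male but had Xist at 1160 and 1350 CPM and Ddx3y at 0.284 and 0.117 CPM. CKO 5.6 was labelled female at 6 h. T cell markers summed to 2150 to 2500 CPM in CKO libraries at 6 h, 1820 to 2430 CPM in CTL libraries at 6 h, 3860 to 4760 CPM in CKO libraries at 0 h and 3340 to 4510 CPM in CTL libraries at 0 h. In a bulk sample, fewer cells of a type and less RNA per cell cannot be told apart.

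The genes lie on chromosomes 11, 5, 8 and 1 (GRCm38). Ccl5 (chr11:83525778-83530518), Ccl3 (chr11:83647844-83649355) and Ccl4 (chr11:83662584-83664683) sit in one cluster, with 13.2 kb between Ccl3 and Ccl4 and no protein-coding gene between them. Ccl1 lies 1220.1 kb from Ccl5 on the same chromosome, in an annotated model that spans chr11:82176657-82305690. Cxcl9 (chr5:92321347-92328079) and Cxcl10 (chr5:92346638-92348889) are neighbours, 18.6 kb apart. Ccl22 (chr8:94745590-94751699) and Xcl1 (chr1:164931644-164935527) each have no other of the 8 on their chromosome. Xcl1 shares 98 exon bases, or 18.7% of its exon length, with Gm20743 on the opposite strand, and Cxcl10 shares 133 exon bases, or 5.9%, with Art3 on the opposite strand. Whether reads were counted by strand is not stated, and reads from these overlaps are therefore of uncertain origin. Gm20743 was at 2.53 to 4.67 CPM in CKO libraries at 6 h, 1.53 to 5.28 CPM in CTL libraries at 6 h, 0.886 to 2.5 CPM in CKO libraries at 0 h and 0.681 to 1.17 CPM in CTL libraries at 0 h. Art3 was at 1.47 to 2.32 CPM in CKO libraries at 6 h, 1.83 to 10.3 CPM in CTL libraries at 6 h, 2.23 to 5.60 CPM in CKO libraries at 0 h and 1.22 to 4.84 CPM in CTL libraries at 0 h.

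Since 7 of these genes rose after 6 h with beads, the 250 bases before their start sites are of interest, and 3 windows are printed to compare the neighbours Cxcl10 and Cxcl9 with Ccl1. RefSeq (GRCm38.p6) gave such a window for 6 of the 8 genes, all but Ccl4 and Ccl5. Each runs 5′ to 3′ on the gene's minus strand, at chr5:92348890-92349139 for Cxcl10, chr5:92328080-92328329 for Cxcl9 and chr11:82179813-82180062 for Ccl1, and capitals mark matches to the NF-kB consensus, the ISRE core (GAAA, any 2 bases, GAAA), the GAS element TTCNNNGAA or the AP-1 site TGANTCA on either strand.
Cxcl10: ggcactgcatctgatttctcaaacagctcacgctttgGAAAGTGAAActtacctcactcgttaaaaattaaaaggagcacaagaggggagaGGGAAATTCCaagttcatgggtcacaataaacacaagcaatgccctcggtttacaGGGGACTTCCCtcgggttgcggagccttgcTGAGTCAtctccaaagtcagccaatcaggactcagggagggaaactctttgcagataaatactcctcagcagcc
Cxcl9: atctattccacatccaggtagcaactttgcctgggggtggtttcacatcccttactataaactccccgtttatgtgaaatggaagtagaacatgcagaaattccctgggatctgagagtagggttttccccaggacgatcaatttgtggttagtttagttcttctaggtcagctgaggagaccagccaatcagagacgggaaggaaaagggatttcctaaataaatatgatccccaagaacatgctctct
Ccl1: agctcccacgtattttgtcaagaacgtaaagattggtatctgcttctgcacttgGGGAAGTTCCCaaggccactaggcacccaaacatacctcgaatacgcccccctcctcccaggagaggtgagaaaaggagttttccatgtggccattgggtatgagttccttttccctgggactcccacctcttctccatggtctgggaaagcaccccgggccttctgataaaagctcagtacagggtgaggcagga
The Cxcl10 window held an ISRE core 213 to 204 bases before the start, an NF-kB match at 159 to 150, overlapping NF-kB matches at 104 to 95 and 103 to 94, and an AP-1 site at 74 to 68. The Ccl1 window held overlapping NF-kB matches at 196 to 187 and 195 to 186. The Cxcl9 window held no match to these motifs, and neither did those of Ccl3, Xcl1 and Ccl22. The NFAT core GGAAA, not capitalised, was present on one strand or the other in the windows of Ccl1, Ccl3, Xcl1, Cxcl9 and Cxcl10, and overlapped the ISRE core and an NF-kB match of Cxcl10. TATAAA, searched on the gene's strand, was found in the Cxcl9 window. Of 32851 mouse promoter windows of this length, 7.25% held an NF-kB match, 2.98% an ISRE core, 7.02% a GAS element, 6.75% an AP-1 site, 55.6% a GGAAA and 7.59% a TATAAA. A match describes letters only and does not show that a factor binds.

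To compare levels between genes, CPM was divided by exon length in kilobases. For Ccl1 this was 2369 exon bases of the annotated model, which spans 129.03 kb, and the RefSeq promoter window lies inside that model. The level of Ccl1 per kb, its rank and its share of the ligand total therefore depend on that model. In unstimulated cells Ccl5 stood far above the other 7. It averaged 39.3 ± 12.0 CPM per kb in CKO libraries at 0 h and 69.1 ± 24.9 CPM per kb in CTL libraries at 0 h (SD, n = 6 each), and made up 72.7% of the summed CPM per kb of 36 chemokine ligands in the CKO libraries and 77.5% in the CTL libraries. Xcl1 was at 3.56 ± 0.890 CPM per kb in CKO libraries at 0 h and 5.69 ± 1.22 in CTL libraries at 0 h (SD, n = 6 each). In CKO libraries it did not differ from Cxcl10 beyond their spread. Cxcl10, Ccl4 and Ccl3 were at mean levels between 1.29 and 3.17 CPM per kb in both genotypes, and neighbours among these 3 did not differ beyond their spread. Cxcl9, Ccl1 and Ccl22 were at 0.133 CPM per kb or lower in either genotype.

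At 6 h the order was different and the spread of levels narrower. Cxcl10 led the CKO libraries at 24.6 ± 13.7 CPM per kb (SD, n = 3), followed by Ccl5 at 13.2 ± 1.19, Ccl4 at 12.8 ± 10.5, Xcl1 at 10.6 ± 7.57 and Ccl3 at 5.57 ± 4.24. Ccl4 led the CTL libraries at 37.1 ± 5.31 CPM per kb (SD, n = 5), followed by Xcl1 at 34.7 ± 16.0, Cxcl10 at 28.2 ± 4.28, Ccl5 at 25.7 ± 12.6 and Ccl3 at 17.9 ± 5.02. Neighbours within these upper 5 lay within their spread in each genotype. Ccl22, Ccl1 and Cxcl9 stayed lowest, at 4.16, 2.93 and 0.695 CPM per kb in CKO libraries and 1.43, 3.15 and 0.833 CPM per kb in CTL libraries. The 8 genes together made up 86.5% of the ligand total in CKO libraries and 93.4% in CTL libraries at 6 h, against 90.4% in CKO libraries and 92.7% in CTL libraries at 0 h.

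**Figure D1:**
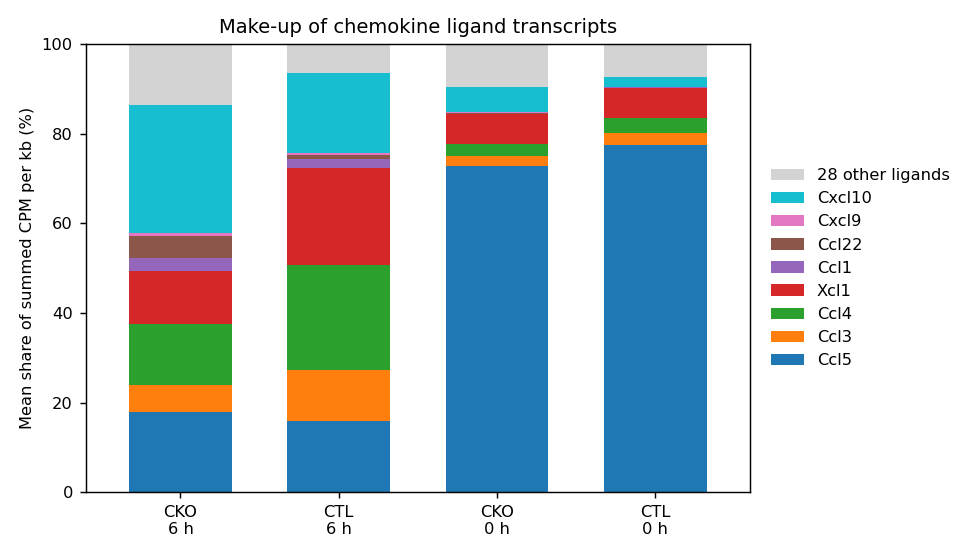
Mean share, in percent, of each of the 8 chemokines and of 28 other ligands in the summed CPM per kb of 36 chemokine ligands, stacked by group. Ccl5 filled 72.7% (CKO) and 77.5% (CTL) of the total at 0 h, against 17.9% (CKO) and 15.9% (CTL) at 6 h.

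After 6 h with beads, 7 of the 8 chemokines rose and Ccl5 fell, in both genotypes. In CKO cells 32.8% of all tested genes were called, 19.6% higher and 13.1% lower, and in CTL cells 63.4%, 41.6% higher and 21.7% lower. A gene is called here at an adjusted p under 0.05 by edgeR's quasi-likelihood test with Benjamini-Hochberg adjustment over all tested genes, with labelled sex in the model. The median log2 fold change of the 8 was 2.65 in CKO cells, against 0.12 over all genes, and 3.41 in CTL cells, against 0.31 over all genes. DESeq2 called all 8 in both genotypes, and 9841 of all 28082 tested genes in CKO cells and 17957 in CTL cells. How many of all tested genes had groups without overlap was not counted for any comparison below.

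Ccl5, a transcript that memory CD8 T cells keep in store, was the only one of the 8 that fell. It was at 12.5, 13.9 and 11.6 CPM in the CKO libraries at 6 h and at 26.2 to 58.4 CPM (median 34.0) in CKO libraries at 0 h. It was at 38.2, 16.6, 32.4, 8.22 and 27.9 CPM in the CTL libraries at 6 h and at 42.5 to 110 CPM (median 61.4) in CTL libraries at 0 h. The 6 h libraries lay below all 0 h libraries of their genotype. The log2 fold change was −1.67 ± 0.39 in CKO cells (SE, 3.17-fold lower, adjusted p = 0.00344) and −1.45 ± 0.31 in CTL cells (SE, 2.72-fold lower, adjusted p = 0.000497) by edgeR's quasi-likelihood test. Ccl5 is also made by NK and CD8 T cells, and their markers fell with it. Summed NK and cytotoxic markers were at 56.7 to 68.9 CPM in CKO libraries at 6 h, 49.4 to 97.2 CPM in CTL libraries at 6 h, 119 to 168 CPM in CKO libraries at 0 h and 126 to 235 CPM in CTL libraries at 0 h. Of these 11 markers, 7 fell in CKO cells and 6 in CTL cells, and Cd8a and Cd8b1 fell in both. None of them was at 0, the lowest being Ncr1, and their part in the fall of Ccl5 was not tested. Of all tested genes, 13.1% fell in CKO cells and 21.7% in CTL cells. The fall was not particular to NK and CD8 markers. Of 7 T cell markers, 6 fell in CKO cells and 7 in CTL cells. Of 6 B cell markers, 4 fell in CKO cells and 6 in CTL cells.

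Ccl3 and Ccl4, the inflammatory chemokines also known as MIP-1α and MIP-1β, rose in both genotypes. Ccl4 was at 4.15, 4.77 and 16.5 CPM in the CKO libraries at 6 h and at 0.420 to 2.13 CPM (median 0.966) in CKO libraries at 0 h. It was at 29.6, 25.8, 23.7, 23.0 and 20.2 CPM in the CTL libraries at 6 h and at 1.15 to 3.53 CPM (median 1.5) in CTL libraries at 0 h. The times did not overlap in either genotype, and Ccl4 was 8.66-fold higher in CKO cells (log2 3.11 ± 0.46, adjusted p = 5.95e-05) and 12.4-fold higher in CTL cells (log2 3.63 ± 0.42, adjusted p = 1.48e-06) by edgeR. Ccl3 was at 1.80, 3.06 and 7.94 CPM in the CKO libraries at 6 h and at 0.298 to 2.20 CPM (median 0.718) in CKO libraries at 0 h. It was at 19.4, 14.9, 13.4, 12.0 and 8.93 CPM in the CTL libraries at 6 h and at 1.07 to 3.78 CPM (median 1.53) in CTL libraries at 0 h. The CKO times overlapped for Ccl3 and the CTL times did not. Its log2 fold change was 2.15 ± 0.50 in CKO cells (adjusted p = 0.00369) and 2.81 ± 0.45 in CTL cells (adjusted p = 4.53e-05) by edgeR. Blocking on the library number, which pairs the libraries, left Ccl3 in CKO cells at 1.70 (adjusted p = 0.0401) in place of the sex term and at 1.49 (adjusted p = 0.154) beside it.

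Xcl1, or lymphotactin, was at 1.96, 4.84 and 9.79 CPM in the CKO libraries at 6 h and at 1.35 to 2.63 CPM (median 1.91) in CKO libraries at 0 h. It was at 25.7, 14.3, 5.27, 23.1 and 22.5 CPM in the CTL libraries at 6 h and at 2.30 to 3.99 CPM (median 2.87) in CTL libraries at 0 h. One CKO library at 6 h lay within the 0 h range, and no CTL library did. Xcl1 rose by a log2 fold change of 1.45 ± 0.39 in CKO cells (2.73-fold, adjusted p = 0.00872) and 2.63 ± 0.35 in CTL cells (6.19-fold, adjusted p = 7.09e-06) by edgeR.

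Ccl1 and Ccl22, ligands of receptors found on T helper 2 and regulatory T cells, were near their detection limit in unstimulated cells and rose most in fold terms. Ccl22 was at 7.12, 6.08 and 15.8 CPM in the CKO libraries at 6 h and at 0.0459 to 0.427 CPM (median 0.109, 3 to 28 counts) in CKO libraries at 0 h. It was at 5.26, 2.65, 0.869, 5.61 and 2.28 CPM in the CTL libraries at 6 h and at 0 to 0.153 CPM (median 0.0734, 0 to 11 counts) in CTL libraries at 0 h. No 6 h library overlapped a 0 h library, and edgeR gave log2 fold changes of 5.95 ± 0.67 in CKO cells (adjusted p = 2.72e-06) and 5.41 ± 0.65 in CTL cells (adjusted p = 2.34e-06). Ccl1 was at 3.34, 2.48 and 15 CPM in the CKO libraries at 6 h and at 0.183 to 0.307 CPM (median 0.246) in CKO libraries at 0 h. It was at 7.54, 3.06, 1.94, 9.42 and 15.4 CPM in the CTL libraries at 6 h and at 0.107 to 0.308 CPM (median 0.203) in CTL libraries at 0 h. All 6 h libraries were above all 0 h libraries. Ccl1 was 26.4-fold higher in CKO cells (log2 4.72 ± 0.55, adjusted p = 4.49e-06) and 36.0-fold higher in CTL cells (log2 5.17 ± 0.54, adjusted p = 3.95e-07) by edgeR.

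The CXCR3 ligands Cxcl10 and Cxcl9, neighbours on chromosome 5, both rose. Cxcl10 was at 46.4, 30.1 and 90.0 CPM in the CKO libraries at 6 h and at 1.90 to 15.4 CPM (median 6.02) in CKO libraries at 0 h. It was at 74.0, 69.0, 65.9, 49.0 and 59.8 CPM in the CTL libraries at 6 h and at 2.63 to 6.32 CPM (median 3.91) in CTL libraries at 0 h. The times did not overlap, and Cxcl10 was 8.04-fold higher in CKO cells (log2 3.01 ± 0.41, adjusted p = 2.74e-05) and 14.9-fold higher in CTL cells (log2 3.90 ± 0.39, adjusted p = 2.54e-07) by edgeR. Cxcl9 was at 0.854, 0.902 and 4.54 CPM in the CKO libraries at 6 h and at 0.230 to 0.671 CPM (median 0.408) in CKO libraries at 0 h. It was at 6.65, 1.58, 0.824, 1.70 and 1.80 CPM in the CTL libraries at 6 h and at 0.0757 to 0.446 CPM (median 0.249) in CTL libraries at 0 h. The times did not overlap in either genotype. Cxcl9 rose by a log2 fold change of 2.30 ± 0.59 in CKO cells (adjusted p = 0.00665) and 3.18 ± 0.56 in CTL cells (adjusted p = 9.6e-05) by edgeR. Myeloid cells also make both, and summed myeloid markers were at 18.3 to 59.3 CPM in CKO libraries at 6 h, 14.6 to 38.7 CPM in CTL libraries at 6 h, 102 to 244 CPM in CKO libraries at 0 h and 66.0 to 209 CPM in CTL libraries at 0 h. Of these 11 markers, 7 fell in each genotype, where 13.1% of all tested genes fell in CKO cells and 21.7% in CTL cells. The part of myeloid cells in the rise was not tested.

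**Figure D2:**
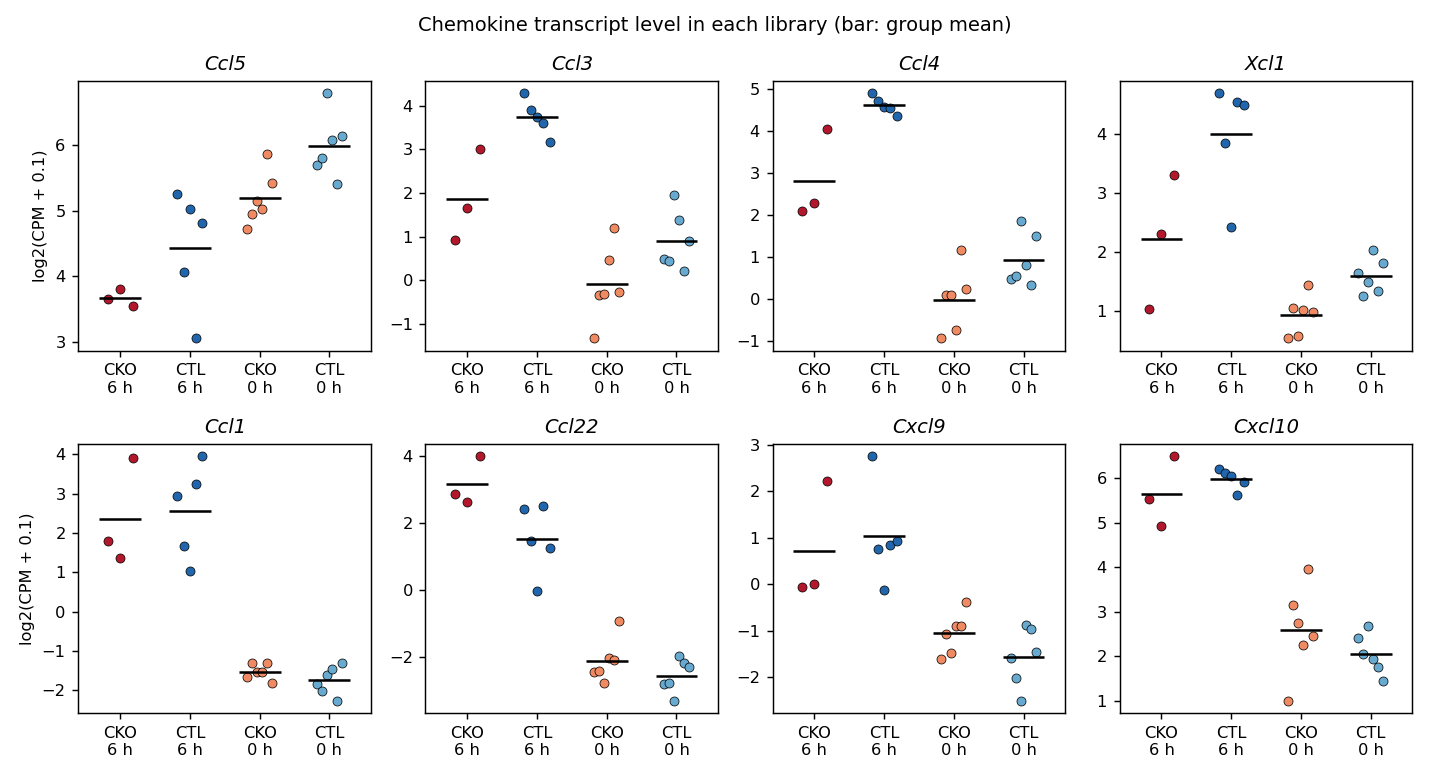
Level of each chemokine in each of the 20 libraries, as log2(CPM + 0.1), by genotype and time. Points are libraries and bars are means of the plotted log2 values. Ccl5 alone lies lower at 6 h, and Ccl22 at 6 h lies at 6.08 to 15.8 CPM in CKO libraries and 0.869 to 5.61 CPM in CTL libraries.

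**Figure D3:**
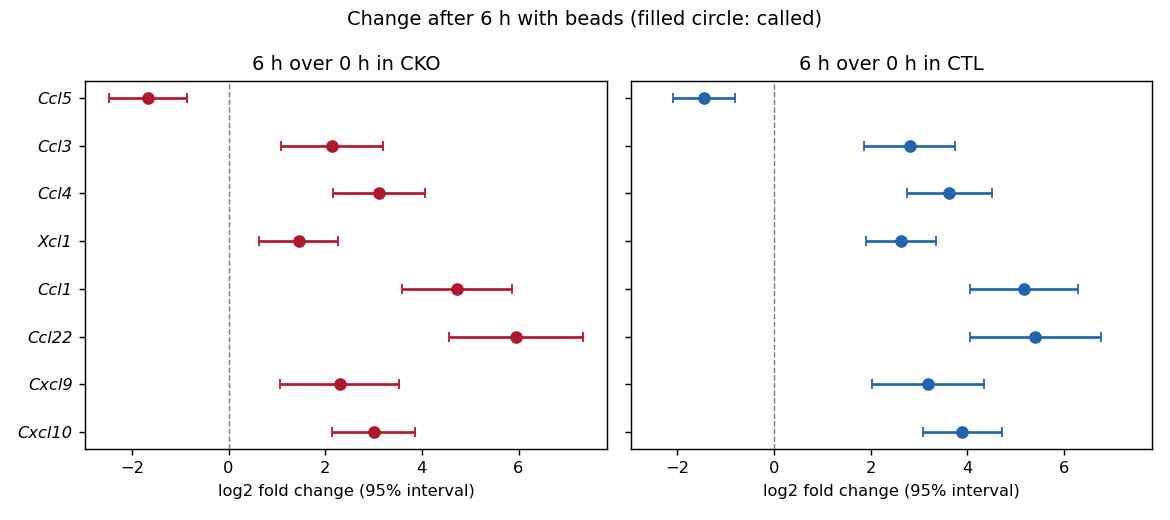
Log2 fold change of each chemokine after 6 h over 0 h, in CKO cells (left) and CTL cells (right), with 95% intervals. Filled circles were called by edgeR, and all 16 values were, with Ccl5 alone below 0.

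CKO library 11.18 at 6 h was the highest of its group for 7 of the 8 chemokines and the lowest for Ccl5. In the same library Ifng was at 55.9 CPM, against 11.4 and 10.8 CPM in the other CKO libraries at 6 h, and Tnf at 236 CPM, against 92.9 and 94.4 CPM. The CTL libraries at 6 h lay at 22.1 to 43.8 CPM for Ifng and at 89.7 to 240 CPM for Tnf. Summed dendritic markers were at 57.1 CPM in this library, against 31.6 and 31.2 CPM in the other CKO libraries at 6 h, and their part in its chemokine levels was not tested. Without this library edgeR called 5 of the 8 in CKO cells, with Ccl3 at 1.24 (adjusted p = 0.14), Xcl1 at 0.40 (adjusted p = 0.511) and Cxcl9 at 0.71 (adjusted p = 0.443) no longer called. Calls also fell over all genes, from 9203 in the main fit to 4848 without this library. The log2 fold changes of Ccl1, Ccl4 and Ccl22 in CKO cells were then 3.25, 2.14 and 5.27 and still called. That of Ccl22 was 6.56 without CKO library 11.18 at 0 h. In CTL cells all 8 were called whichever library was left out, where 15561 to 19210 of all genes were. CTL library 4.24 at 6 h was the highest of its group for 6 of the 8 chemokines, and Cxcl9 was at 2.5 without it.

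Between genotypes at 6 h, Ccl3, Ccl4, Ccl5 and Xcl1 had lower means in the CKO libraries and Ccl22 a higher one, but none of the 8 passed the test by edgeR, where 0.292% of all tested genes did, 0.253% higher and 0.0392% lower. At an unadjusted p under 0.05 there were 5 of the 8, and DESeq2 called 3 of them lower, Ccl3 (adjusted p = 0.0478), Ccl4 (adjusted p = 0.0426) and Xcl1 (adjusted p = 0.0111). Of all 28082 tested genes, 3564 had an unadjusted p under 0.05 by edgeR at 6 h, and DESeq2 called 432. Ccl4 averaged 8.47 ± 6.95 CPM in CKO libraries (SD, n = 3) and 24.5 ± 3.50 CPM in CTL libraries (SD, n = 5), and Ccl3 averaged 4.27 ± 3.25 CPM in CKO libraries and 13.7 ± 3.84 CPM in CTL libraries. For both genes every CKO library lay below every CTL library. The nearest libraries were at 16.5 (CKO) and 20.2 CPM (CTL) for Ccl4 and at 7.94 (CKO) and 8.93 CPM (CTL) for Ccl3. The share of all tested genes separated in this way was not counted. The log2 fold changes of Ccl4 and Ccl3 were −1.58 ± 0.50 (95% interval −2.63 to −0.53, adjusted p = 0.288) and −1.71 ± 0.56 (95% interval −2.88 to −0.54, adjusted p = 0.299) by edgeR. With the library number as a block in place of the sex term, edgeR gave −1.96 (adjusted p = 0.323) and −2.49 (adjusted p = 0.319).

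Xcl1 averaged 5.53 ± 3.96 CPM in CKO libraries at 6 h (SD, n = 3) and 18.2 ± 8.38 CPM in CTL libraries at 6 h (SD, n = 5). The groups overlapped through CTL library 5.13. Its log2 fold change was −1.61 ± 0.44 (95% interval −2.53 to −0.70, adjusted p = 0.162) by edgeR, and −1.92 (adjusted p = 0.144) with the library number as a block in place of the sex term. Leaving out CTL library 5.13 at 6 h gave −1.87 (adjusted p = 0.0258), and leaving out CKO library 11.18 at 6 h gave −2.54 (adjusted p = 0.00878), so the call rests on which libraries enter. Over all genes these 2 fits called 212 and 182 between genotypes at 6 h, against 82 in the main fit. Without CKO library 11.18, Ccl4 was at −2.44 (adjusted p = 0.0414) and Ccl3 at −2.5 (adjusted p = 0.0762). NK and cytotoxic T cells also make Ccl3, Ccl4, Ccl5 and Xcl1, and summed NK and cytotoxic markers were at 56.7 to 68.9 CPM (median 56.8) in CKO libraries and 49.4 to 97.2 CPM (median 73.7) in CTL libraries at 6 h. Of these 11 markers none was called between genotypes at 6 h by edgeR or DESeq2, and 3 had an unadjusted p under 0.05. Nkg7 averaged 3.66 CPM in CKO libraries and 6.83 CPM in CTL libraries, Klrd1 averaged 4.01 CPM in CKO libraries and 6.39 CPM in CTL libraries, and Prf1 averaged 11.4 CPM in CKO libraries and 6.98 CPM in CTL libraries. The median log2 fold change of the 11 was −0.40, and their part in the chemokine differences was not tested.

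Ccl22 averaged 9.67 ± 5.34 CPM in CKO libraries at 6 h (SD, n = 3) and 3.33 ± 2.03 CPM in CTL libraries at 6 h (SD, n = 5), and every CKO library lay above every CTL library. The nearest were at 6.08 (CKO) and 5.61 CPM (CTL), and the share of all tested genes so separated was not counted. The log2 fold change was 1.58 ± 0.62 (95% interval 0.28 to 2.87, adjusted p = 0.366) by edgeR, and 0.99 without CKO library 11.18. As a share of the ligand total Ccl22 was 4.14% to 5.24% in CKO libraries and 0.273% to 1.72% in CTL libraries at 6 h. Ccl22 is also made by dendritic cells, whose summed markers were at 31.2 to 57.1 CPM in CKO libraries and 15.4 to 55.3 CPM in CTL libraries at 6 h, and their part in the difference was not tested.

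Ccl5 averaged 12.7 ± 1.14 CPM in CKO libraries at 6 h (SD, n = 3) and 24.6 ± 12.1 CPM in CTL libraries at 6 h (SD, n = 5), with overlap, and its log2 fold change was −0.91 ± 0.38 (95% interval −1.70 to −0.13, adjusted p = 0.371) by edgeR. Cxcl10 averaged 55.5 ± 30.9 CPM in CKO libraries and 63.5 ± 9.64 CPM in CTL libraries (SD, n = 3 and n = 5), Ccl1 averaged 6.94 ± 6.99 CPM in CKO libraries and 7.47 ± 5.40 CPM in CTL libraries, and Cxcl9 averaged 2.10 ± 2.11 CPM in CKO libraries and 2.51 ± 2.34 CPM in CTL libraries. The log2 fold change was −0.26 for Cxcl10 (95% interval −1.18 to 0.66), 0.13 for Ccl1 (−1.07 to 1.32) and 0.07 for Cxcl9 (−1.30 to 1.44). Each interval includes a 2-fold lower level in CKO libraries, and those of Ccl1 and Cxcl9 also a 2-fold higher one. The values of Ccl1 and Cxcl9 are adjusted for labelled sex and have the opposite sign to the difference of their means. Without the sex term they were −0.11 for Ccl1 and −0.25 for Cxcl9, and without CKO library 11.18 they were −1.22 for Ccl1 and −1.36 for Cxcl9. Cxcl9 was at 0.51 without CTL library 4.24 at 6 h.

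At 0 h none of the 8 was called between genotypes by edgeR, where 0.424% of all tested genes were, 0.231% higher and 0.192% lower, and all 8 overlapped. At an unadjusted p under 0.05 there were 3 of the 8, Ccl3, Ccl4 and Ccl5, and DESeq2 called 0. Of all 28082 tested genes, 2118 had an unadjusted p under 0.05 by edgeR at 0 h, and DESeq2 called 421. Ccl5 averaged 37.7 ± 11.5 CPM in CKO libraries at 0 h and 66.3 ± 23.9 CPM in CTL libraries at 0 h (SD, n = 6 each), with a log2 fold change of −0.69 ± 0.30 (95% interval −1.33 to −0.06, adjusted p = 0.595) by edgeR. Ccl3 was at −1.05 ± 0.47 (95% interval −2.03 to −0.08) and Ccl4 at −1.06 ± 0.43 (95% interval −1.96 to −0.16). In the 5 same-numbered pairs at 0 h each of these 3 was lower in the CKO library in all but the pair numbered 9.20. Summed NK and cytotoxic markers were at 119 to 168 CPM (median 147) in CKO libraries and 126 to 235 CPM (median 175) in CTL libraries at 0 h, and their part was not tested. None of the 11 was called by edgeR or DESeq2, and 2 had an unadjusted p under 0.05. Leaving out CTL library 5.13 at 0 h gave −0.30 for Ccl5, −0.58 for Ccl3 and −0.68 for Ccl4. Xcl1 averaged 1.86 ± 0.465 CPM in CKO libraries and 2.98 ± 0.639 CPM in CTL libraries (SD, n = 6 each), with a log2 fold change of −0.43 (95% interval −1.19 to 0.32). The intervals were −0.18 to 1.45 for Cxcl10, −0.27 to 2.19 for Cxcl9, −0.61 to 1.76 for Ccl1 and −0.45 to 2.53 for Ccl22, and the value of Ccl22 was 1.04, or 0.43 without CKO library 11.18 at 0 h. Female labels at 0 h occurred only among CTL libraries, so labelled sex and genotype were not fully separable there. The labels of CKO 4.24 and 5.6 at 0 h also conflict with their Xist and Ddx3y levels. Without the sex term Xcl1 was at −0.68, Cxcl9 at 0.6 in place of 0.96 and Ccl1 at 0.29 in place of 0.57. With sex by Ddx3y they were at −0.63, 0.66 and 0.34. Neither fit called any of the 8.

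**Figure D4:**
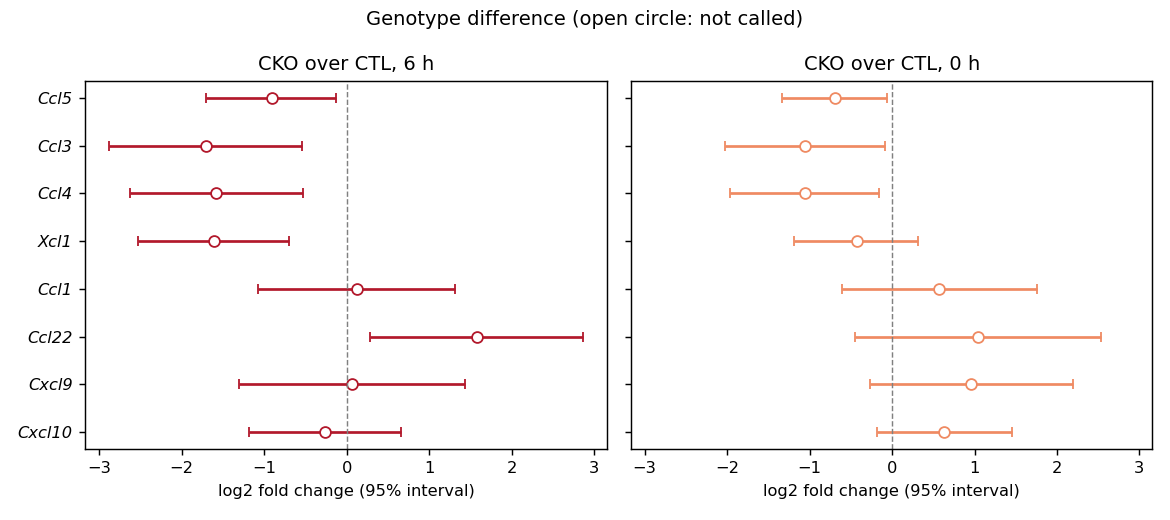
Log2 fold change of each chemokine in CKO over CTL libraries at 6 h (left) and 0 h (right), with 95% intervals. Open circles were not called by edgeR, and none was called at either time. At 6 h Ccl3, Ccl4, Xcl1 and Ccl5 have intervals below 0 and Ccl22 has its interval above 0.

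Whether the response to the beads differed between genotypes was tested by the interaction of genotype and time. None of the 8 was called by edgeR, and 0 of all 28082 genes were (0%). At an unadjusted p under 0.05 there was 1 of the 8 and 2725 of all genes, and DESeq2 called 0 of each. Xcl1 was at −1.18 ± 0.54 (95% interval −2.30 to −0.06, adjusted p = 0.465) by edgeR. The other 7 ranged between −0.89 for Cxcl9 and Cxcl10 and 0.54 for Ccl22. Without CKO library 11.18 at 6 h the interaction was −2.44 for Cxcl9, −2.23 for Xcl1, −1.92 for Ccl1, −1.56 for Ccl3, −1.5 for Ccl4, −1.41 for Cxcl10, −0.19 for Ccl5 and −0.16 for Ccl22, none of them called. Without CTL library 4.24 at 6 h that of Cxcl9 was −0.12. With the library number as a block, Ccl3 was at −1.25 in place of the sex term and −1.49 beside it, and Xcl1 at −1.17 in place of it and −1.39 beside it. The responses are thus not shown to differ between genotypes.

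Of the 30 other chemokine ligands listed, 18 were tested. In CKO cells 10 rose and 1 fell, where 32.8% of all tested genes were called, and in CTL cells 11 rose and 1 fell, where 63.4% were. Some passed the filter only through their 6 h values, and the median log2 fold change was 1.32 in CKO cells and 1.5 in CTL cells. Ccl20, the ligand of CCR6, was one of these. It averaged 2.14 ± 1.34 CPM in CKO libraries at 6 h (SD, n = 3) and 0.518 ± 0.488 CPM in CTL libraries at 6 h (SD, n = 5), and no 0 h library was above 0.0305 CPM. The neutrophil attractant Cxcl2 rose by log2 4.41 ± 0.52 in CKO cells and 4.54 ± 0.48 in CTL cells. Cxcl3 rose by 4.06 ± 0.65 in CKO cells and 4.50 ± 0.63 in CTL cells, and Ccl6, the 1 that fell and named here after its values were seen, changed by −2.66 ± 0.95 in CKO cells and −2.71 ± 0.75 in CTL cells. None was called between genotypes by edgeR at 6 h, where 2 had an unadjusted p under 0.05 and DESeq2 called 0, or at 0 h, where 1 had an unadjusted p under 0.05 and DESeq2 called 1.

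Transcripts of receptors that read these ligands were also present in the bulk samples, and 6 were tested. In both genotypes 2 rose after 6 h, the Ccl1 receptor Ccr8 (log2 1.09 ± 0.38 in CKO cells and 2.30 ± 0.33 in CTL cells) and Xcr1 (1.09 ± 0.35 in CKO cells and 1.56 ± 0.31 in CTL cells), and 2 fell, Ccr4 and Cxcr3, beside 32.8% of all tested genes called in CKO cells and 63.4% in CTL cells. Ccr4, the Ccl22 receptor, changed by −1 ± 0.23 in CKO cells and −0.98 ± 0.19 in CTL cells, and Cxcr3, the receptor of Cxcl9 and Cxcl10, by −0.70 ± 0.24 in CKO cells and −0.99 ± 0.20 in CTL cells. Xcr1, which is also among the dendritic markers summed here, averaged 1.85 CPM in CKO libraries and 2.17 CPM in CTL libraries at 6 h. At 0 h Xcr1 averaged 0.685 CPM in CKO libraries and 0.781 CPM in CTL libraries, and which cells held it was not tested. Ccr4 averaged 29.8 ± 6.18 CPM in CKO libraries at 6 h (SD, n = 3) and 17.7 ± 4.51 CPM in CTL libraries at 6 h (SD, n = 5), with an adjusted p of 0.19 by edgeR. None was called between genotypes at 6 h, where 1 had an unadjusted p under 0.05 and DESeq2 called 1, or at 0 h, where 2 had an unadjusted p under 0.05 and DESeq2 called 1. Of 19 genes of the interferon-gamma response, 17 rose in each genotype. Of all tested genes, 19.6% rose in CKO cells and 41.6% in CTL cells. Gbp2, an interferon-induced GTPase, was among the 17 and rose by 5.07 ± 0.21 in CKO cells and 4.80 ± 0.20 in CTL cells. Ifng itself rose by 1.76 ± 0.44 in CKO cells and 2.10 ± 0.39 in CTL cells. In CKO libraries Ifng was at 11.4, 10.8 and 55.9 CPM at 6 h and at 3.36 to 12.2 CPM at 0 h. Only CKO library 11.18 lay above that 0 h range. In CTL libraries Ifng was at 22.1 to 43.8 CPM at 6 h and at 5.8 to 12.3 CPM at 0 h. None of the 19 was called between genotypes by edgeR at either time, while 1 had an unadjusted p under 0.05 and DESeq2 called 0 at each time.

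Over the 20 libraries, the genes whose centred log2 levels lay nearest to a chemokine's were found by root mean square (r.m.s.) difference among 9789 candidates. Of those that rose, the 3 nearest genes were Bcat1, Lif and Mir155hg for Ccl1, and Xcl1, Ifng and Tnf for Ccl3. For Ccl4 they were Nr4a2, Gadd45b and Tnf, for Ccl22 Nr4a3, Gbp11 and Lad1, and for Xcl1 Cd69, Car12 and Ifng. For Cxcl9 they were Hk2, Cd69 and Nfkbid, and for Cxcl10 Lif, Gadd45b and Irf4. The r.m.s. differences of these genes ran from 0.47 to 0.91 log2 units. Among the candidates Xcl1 was nearest to Ccl3, at 0.70, and Hk2 was nearest to Cxcl9, at 0.59. Ccl5 was nearest to Itgae, at 0.46, Ifitm10, at 0.47, and Pxylp1, at 0.48. Of all pairs among the 8, Ccl3 and Ccl4, which are neighbours on chromosome 11, were closest, at 0.58. The values describe 20 libraries that share their groups.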

How the data were processed

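Bulk RNA from mouse splenic T cells was sequenced in 20 libraries of 4 groups. Per the submitters' processing notes, the authors used Trimmomatic 0.36, STAR 2.5.2b, featureCounts and Subread 1.5.2 with build GRCm38. The authors deposited whole-number counts per gene for all 20 libraries in 1 table, which held 0 columns of other samples. The annotation release and the strand setting were not given in the sources used here. RNA integrity differed between libraries, per the labels' protocols.

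Symbols were matched to gene identifiers by GENCODE M21, 49056 of 49315 matching and 259 not. The main test ran in edgeR 4.0.16 (R 4.3.3) (TMM scaling, filter of at least 10 counts and 15 in total, quasi-likelihood test with group and labelled sex, Benjamini-Hochberg adjustment over 28082 genes, threshold 0.05). SE is the absolute log2 fold change over the square root of F, and intervals are 95%. DESeq2 1.42.0 was an alternative, as were other scaling, filters, sex terms, blocks and leaving out each library. CPM was scaled by TMM, and the library size limits precision of the low genes. The 43 pairs of libraries within a group were checked for copies and differed by a chi-square of 21.5 to 303 per degree of freedom. Library numbers pair the libraries: residuals of same-numbered libraries correlated at 0.30 to 0.67 between CKO and CTL at 0 h (5 pairs), at 0.15 to 0.50 between times in CKO (3 pairs), and at 0.29 to 0.51 between times in CTL (5 pairs), and at 0.57 in the 1 pair between genotypes at 6 h. The ligand symbols Ccl19 and Ccl21a matched several identifiers and were left out of counts, and 1 receptor is not reported here. Named genes followed a rule: all 8 chemokines, up to 4 called genes of a list with the smallest adjusted p, and the 3 candidates (mean log2 CPM of at least 2) nearest to each chemokine. The members and lists were chosen with earlier results of these data known. Promoter windows were read from RefSeq, GRCm38.p6.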

Additional observations from a re-analysis of the deposited data

Results flagged for a closer look

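Ccl22 at 0 h had 1 CKO library, 11.18, apart from the rest of its group, at 0.427 CPM against 0.146 CPM in the next highest of the 6 libraries. Cxcl9 at 6 h had 1 CTL library, 4.24, apart from the rest, at 6.65 CPM against 1.80 CPM in the next highest of the 5. These were 2 of 24 groups checked for a library whose gap to the others is too wide for its group, and chance gives about 1 in 20. CTL library 4.24 at 6 h was also the shallowest, at 26427467 counts. Without CKO 11.18 at 0 h, Ccl22 was at 6.56 over time in CKO cells and at 0.43 between genotypes at 0 h, both as log2 fold changes. Without CTL 4.24 at 6 h, Cxcl9 was at 2.5 over time in CTL cells and at 0.51 between genotypes at 6 h.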

How the results depend on the processing

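Depth limits Ccl22, Ccl1 and Cxcl9 at 0 h, where counts were as low as 0, 8 and 5. The number of chemokines called between genotypes at 6 h, 0 in the main analysis, was 3 with DESeq2 and 0 to 2 when 1 library was left out. The number called over time in CKO cells, 8, was 7 with the replicate block beside the labelled sex, where Ccl3 was at 1.49, 8 with the block in place of it, and 5 to 8 when 1 library was left out. The replicate block changed no other call. At 6 h the genotype value of Cxcl9 reversed with a mean CPM filter of 1 (−0.05), without the sex term (−0.25), with sex by Ddx3y (−0.15) and with the replicate block in place of or beside sex (−0.71 and −0.66). That of Ccl1 reversed without the sex term (−0.11) and with the replicate block (−0.14 and −0.13). Leaving out 1 library moved Ccl1 between −1.22 and 0.82 (−0.22 without CTL 5.13 at 6 h), Cxcl9 between −1.36 and 0.74 (−0.03, −0.22 and −0.02 without CTL 4.29, 5.13 and 10.28 at 6 h), Cxcl10 between −0.73 and 0.08, and the interactions of Ccl5 between −0.58 and 0.02 and of Ccl22 between −0.16 and 1.15. The cause was not tested. Over all genes, calls between genotypes at 0 h were 119, 421 with DESeq2 and 49 to 283 without 1 library, and at 6 h 82, 432 with DESeq2, 8 in a fit of the 6 h libraries alone and 16 to 212 without 1 library. Over time, a mean CPM filter of 1 gave 4956 calls in CKO cells and 7653 in CTL cells, and leaving out 1 library gave 4848 to 12042 in CKO cells. Fitting the compared groups alone was not run for the interaction.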
